A study of Mus musculus with 15 samples.

Results

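Basophils and CD11c+ eosinophils taken from the lungs of papain-treated mice were compared by RNA sequencing, with 2 libraries of each cell type. These 4 libraries were chosen by their labelled cell type, treatment and CD11c gate, out of 15 libraries in 8 groups that also hold natural helper cells and cells of naive mice. All mice are labelled C57BL6/J, and the cells compared here carry no labelled genetic change. Papain, a plant protease that acts as an allergen in the airways, was given into the nose at 50 ug per mouse on 3 days. Basophils were the FceR1+ CD49b+ cells without c-kit, and CD11c+ eosinophils were the SiglecF+ CD11c+ cells with low Gr1 and no autofluorescence. Naive basophils and naive eosinophils (2 libraries each, no treatment, the latter not split by CD11c) and papain CD11c- eosinophils (2 libraries) served as further reference groups. Age, sex and the number of pooled animals are not given in the labels. Replicates are not said to come from separate mice, so the p-values below measure only the spread between libraries, which may be technical. That spread was pooled over the replicates of all 15 libraries, not taken from the 4 compared ones alone.

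Basophils and eosinophils are granulocytes that accumulate in the lung during type 2 responses. Basophils bind IgE through the high-affinity receptor and release histamine, proteases and cytokines, and Gata2 is a central transcription factor of the lineage. Eosinophils store cationic granule proteins such as major basic protein, depend on Gata1 and Cebpe for their development, and enter tissue through the eotaxin receptor Ccr3. Both cell types are known sources of IL-4 and IL-13 in mice.

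The deposited values are whole numbers read as FPKM (sequenced fragments scaled for transcript length and sequencing depth), and the read depth behind them is unknown. FPKM summed to 484597 and 570208 in the papain basophil libraries and to 456063 and 503114 in the CD11c+ eosinophil libraries. Between 10597 and 13049 of 21110 genes were above 0 in these 4 libraries. Differences are given as basophils minus eosinophils on the scale of log2(FPKM + 1) with their standard error. A gene counts as higher in a cell type where the limma test with Benjamini-Hochberg adjustment over all genes tested gave an adjusted p under 0.05. The 2 papain basophil libraries differed more from each other than did the eosinophil libraries: of genes at 10 FPKM or more, 24.6% differed more than 2-fold between the basophil replicates and 7.92% between the CD11c+ eosinophil replicates.

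The labels were first set against markers of the cell types. Of 10 basophil markers, 9 were higher in both basophil libraries than in either eosinophil library, and their FPKM summed to 702 and 2108 in basophils against 246 and 187 in CD11c+ eosinophils. Of 12 eosinophil markers, 8 were higher in both eosinophil libraries, with sums of 1387 and 1439 in eosinophils against 557 and 98 in basophils. Among all genes tested, 16.7% were higher in both basophil libraries and 16.3% in both eosinophil libraries. The eosinophil peroxidase gene Epx was listed at 0 in all 4 libraries. Among the sort genes, which chose the cells and whose differences are therefore no finding, Fcer1a stood at 23 and 18 FPKM in basophils and at 1 and 0 in eosinophils. Fcer1a is also 1 of the 10 basophil markers, so its part in that count followed from the gate. Itga2, which encodes CD49b, was listed at 1 and 2 FPKM in basophils and 0 in both eosinophil libraries, so the sorted surface protein had almost no transcript here. Kit was at 5 and 4 FPKM in basophils and at 4 and 5 in eosinophils. Siglec5, the former symbol of the mouse SiglecF gene, was at 8 and 1 FPKM in basophils and at 76 and 64 in eosinophils, and Itgax, which encodes CD11c, was at 34 and 10 against 186 and 165.

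Both cell types carried transcripts of other lung cells, and the basophil libraries carried more of several of them. Epithelial markers summed to 21638 and 44548 FPKM in basophils against 10521 and 8772 in eosinophils, and 10 of 13 were higher in both basophil libraries. The club cell secretoglobin Scgb1a1, at 19550 and 32382 FPKM, was the most abundant gene of both basophil libraries. All 9 endothelial markers were higher in both basophil libraries, with sums of 125 and 398 FPKM against 61 and 56. The 7 lymphatic endothelial markers summed to 38 and 192 FPKM against 14 and 22, with 3 higher in both basophil libraries. Of 14257 genes tested, 16.7% were higher in both basophil libraries than in either eosinophil library and 16.3% were the other way round. Alveolar macrophage markers summed to 12062 FPKM in basophil library 1 and 362 in library 2, against 1160 and 1360 in eosinophils, and mast cell markers to 156 and 4 against 15 and 28. T cell markers summed to 153 and 9 FPKM against 102 and 124, and natural helper cell markers to 464 and 222 against 87 and 115, both highest in basophil library 1. Neutrophil markers were high in both eosinophil libraries, at 12541 and 14417 FPKM against 3323 and 9098 in basophils. The part of these cells in the differences described below was not tested, and in such bulk samples fewer cells of a type and less RNA per cell cannot be told apart.

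**Figure D1:**
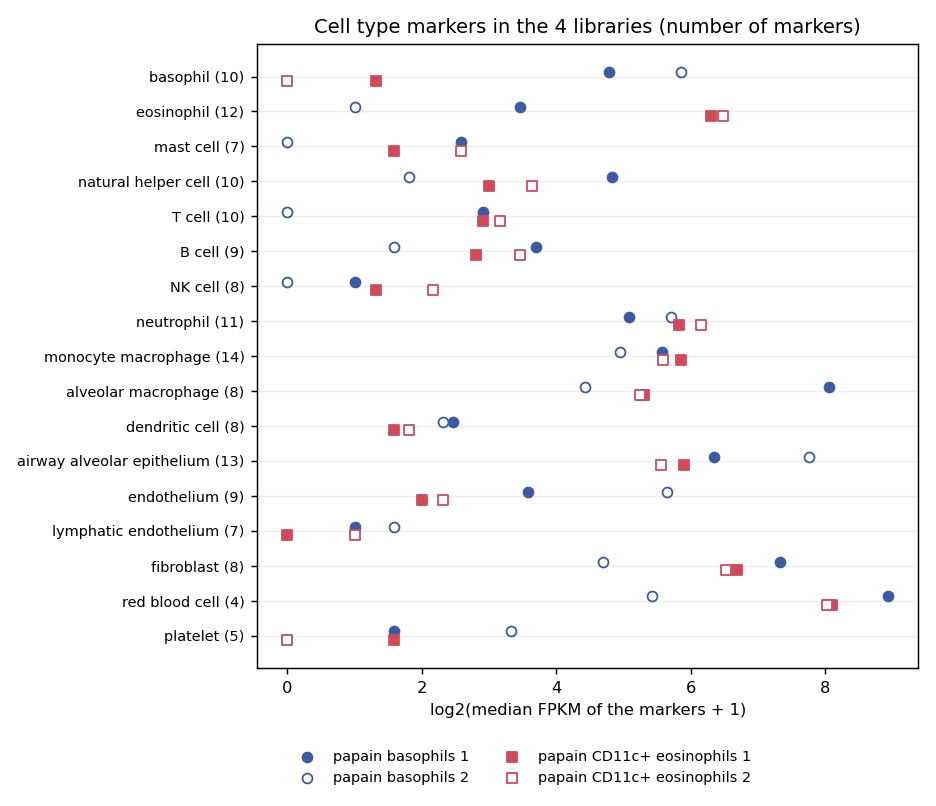
Median FPKM of each list of cell type markers in the 4 libraries, on a log2 axis after adding 1; circles are papain basophils, squares are papain CD11c+ eosinophils, filled for replicate 1 and open for replicate 2, and the number of markers is in parentheses. Basophil and eosinophil markers separate the cell types, while the alveolar macrophage, fibroblast and T cell medians differ mainly between the 2 basophil libraries.

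Of the 14257 genes tested, 893 differed between papain basophils and papain CD11c+ eosinophils, which is 6.26%. Of these, 399 (2.8%) were higher in basophils and 494 (3.46%) were higher in eosinophils. The genes higher in basophils included granzymes, a basophil mast cell protease, the steroid side-chain cleavage enzyme Cyp11a1, the monoamine transporter Slc18a2 and Gata2. Those higher in eosinophils included major basic protein (Prg2), Ccr3, Cebpe, Gata1, 5- and 15-lipoxygenase (Alox5 and Alox15) and receptors of the CD300 and Siglec families. The spread behind these calls was estimated from all 15 libraries. In the other groups of 2 libraries, 2.87% to 9.34% of genes at 10 FPKM or more differed more than 2-fold, against 24.6% in papain basophils. The shared spread may therefore be too small for papain basophils. With the 4 compared libraries alone, limma called 0 genes (1534 at an unadjusted p under 0.05), and with weights that let noisy libraries count less it called 246. Leaving out basophil library 1 raised the count to 2242 and leaving out eosinophil library 1 raised it to 1836, while leaving out basophil library 2 gave 521 and leaving out eosinophil library 2 gave 350. The share of calls higher in basophils, 44.7%, moved to 58.4% with median-ratio scaling, 27.2% with quantile normalization and 24.2% with a filter of 5 FPKM.

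**Figure D2:**
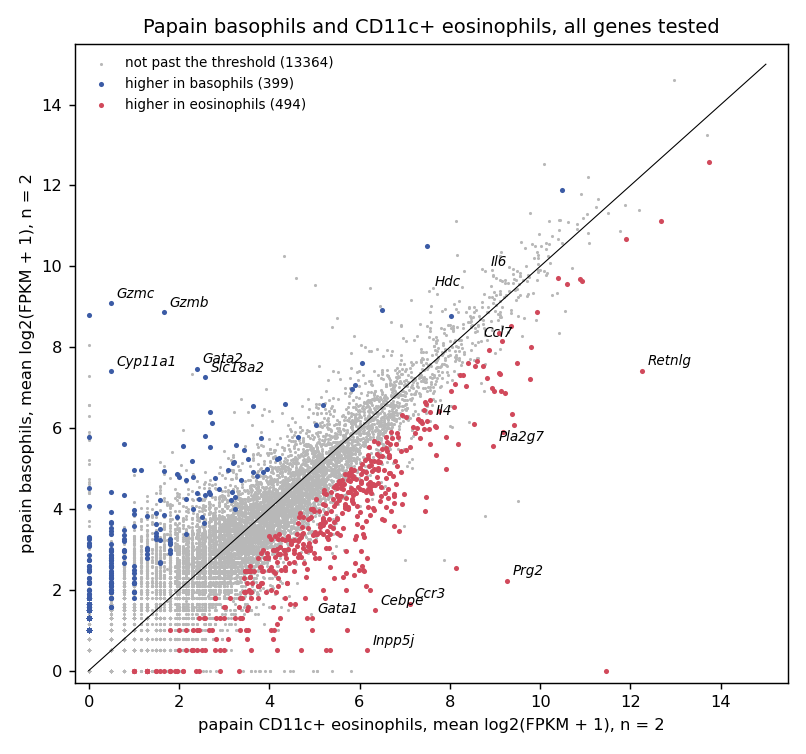
Mean log2(FPKM + 1) of each tested gene in papain CD11c+ eosinophils (horizontal) and papain basophils (vertical), n = 2 libraries each; the line marks equal values. The 399 genes higher in basophils are blue, the 494 higher in eosinophils are red, and Hdc, Il4, Il6 and Ccl7 are labelled although they did not pass.

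The largest differences in favour of basophils were in granule proteases. Gzmc, a granzyme, stood at 296 and 992 FPKM in basophils and at 1 and 0 in eosinophils (difference 8.59 ± 0.62, adjusted p = 0.000353). Gzmb, the granzyme best known from cytotoxic lymphocytes, stood at 295 and 739 FPKM against 4 and 1 (7.21 ± 0.68, adjusted p = 0.000681). For both granzymes the lower basophil library lay far above the higher eosinophil library. The 8 NK cell markers summed to 28 and 12 FPKM in basophils and 40 and 39 in eosinophils. Among them, Gzma was at 15 and 10 FPKM in basophils, Klrd1 at 8 and 0, Prf1 at 1 and 0, and Ncr1 was listed at 0 in both. The mast cell protease Mcpt8, a classical basophil marker, was at 30 and 95 FPKM in basophils and listed at 0 in both eosinophil libraries (adjusted p = 0.00211). Granzyme and mast cell protease genes have close relatives, and reads shared between copies make the split between them uncertain. Prss34, another basophil protease, had 7 and 20 FPKM against 0 in both and did not pass (adjusted p = 0.0624).

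**Figure D3:**
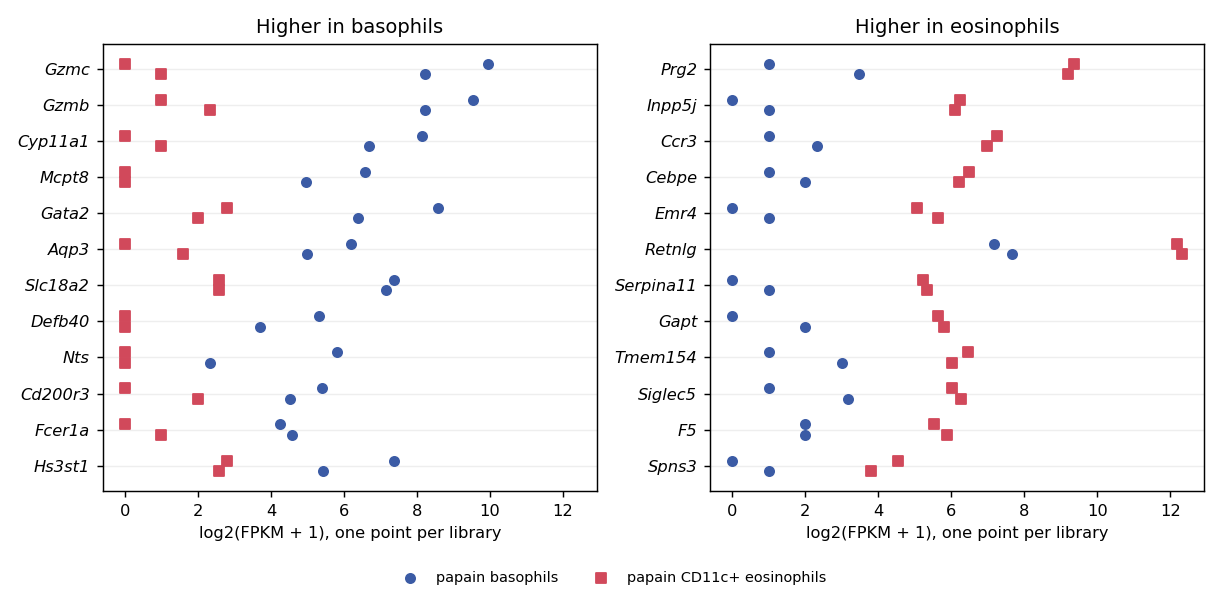
log2(FPKM + 1) in each of the 4 libraries for the 12 genes with the largest differences in each direction under the naming rule; circles are papain basophils and squares are papain CD11c+ eosinophils. In each of the 24 genes the 2 basophil points and the 2 eosinophil points do not overlap, which the rule required. The basophil points lie farther apart than the eosinophil points for genes such as Gzmc, Gata2 and Prg2. Fcer1a and Siglec5 were used in the sort, so their differences follow from the gate.

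Beyond the proteases, basophils had higher levels of genes for amine storage, lineage control and transport. Slc18a2, which loads histamine and other amines into vesicles, stood at 142 and 163 FPKM in basophils against 5 and 5 in eosinophils (4.67 ± 0.25, adjusted p = 0.000148), with closely matching replicates on both sides. Cyp11a1 stood at 101 and 281 FPKM against 1 and 0 (6.91 ± 0.56, adjusted p = 0.000506). The transcription factor Gata2 stood at 82 and 378 FPKM against 3 and 6 (5.07 ± 0.69, adjusted p = 0.0033). Basophil library 2 was the higher one for Cyp11a1 and Gata2, as it was for Gzmb, Gzmc and Mcpt8. The water and glycerol channel Aqp3 (31 and 72 FPKM against 2 and 0, adjusted p = 0.00417) and the heparan sulfate sulfotransferase Hs3st1 (42 and 165 against 5 and 6, adjusted p = 0.00395) followed the same order. The defensin Defb40 was listed at 0 in both eosinophil libraries and at 12 and 39 FPKM in basophils (adjusted p = 0.000681). Cd200r3, an activating receptor of basophils and mast cells, had 22 and 41 FPKM against 3 and 0 (adjusted p = 0.00757, and 0.0564 without basophil library 2). The neuropeptide precursor Nts rested mostly on basophil library 2, with 4 and 55 FPKM against 0 in both (4.06 ± 0.91, adjusted p = 0.0358). Its call was lost without eosinophil library 1 or 2, and the difference was 2.32 without basophil library 2. Nts stood at 1 and 0 FPKM in naive basophils and at 23 and 20 in naive natural helper cells. Of the 7 lymphatic endothelial markers, Ccl21a stood at 11 and 92 FPKM in papain basophils and at 103 and 102 in naive natural helper cells. Stab2, another of these markers, went the other way, at 1 and 0 FPKM in papain basophils and at 73 and 47 in naive natural helper cells. Whether Nts came from other cells was not tested.

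Genes higher in CD11c+ eosinophils included the granule gene Prg2, the chemokine receptor gene Ccr3 and the lineage genes Cebpe and Gata1. These were not particular to the CD11c+ gate. Papain CD11c- eosinophils held 154 and 148 FPKM of Ccr3, 60 and 88 of Cebpe, and 34 and 36 of Gata1. Prg2, the gene of major basic protein, was at 585 and 653 FPKM in eosinophils and at 10 and 1 in basophils (-7.04 ± 1.23, adjusted p = 0.0125). Its call was lost without basophil library 2 (adjusted p = 0.086) and without eosinophil library 2 (0.087). Ccr3, the eotaxin receptor, stood at 124 and 151 FPKM against 4 and 1 in basophils (-5.45 ± 0.44, adjusted p = 0.000506). Cebpe, a transcription factor of granulocyte maturation, stood at 73 and 89 FPKM against 3 and 1 (-4.85 ± 0.39, adjusted p = 0.000506), and Gata1 at 29 and 31 against 1 and 2 (-3.66 ± 0.23, adjusted p = 0.000241). Ccr3, Cebpe and Gata1 were close between the eosinophil replicates and far from both basophil libraries. The 5-phosphatase Inpp5j (67 and 75 FPKM against 1 and 0), the serpin Serpina11 (39 and 36 against 1 and 0) and the adhesion receptor Emr4 (49 and 32 against 1 and 0) had adjusted p of 0.000148, 0.000279 and 0.00314. Coagulation factor F5 (58 and 45 FPKM against 3 and 3), Gapt (55 and 49 against 3 and 0), Tmem154 (64 and 87 against 7 and 1) and the transporter Spns3 (13 and 22 against 1 and 0) were higher as well, with adjusted p of 0.000289, 0.00127, 0.00199 and 0.000681.

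Retnlg, a resistin-like secreted protein also used as a neutrophil marker, was among the most abundant eosinophil transcripts, at 5097 and 4662 FPKM against 201 and 143 in basophils (-4.84 ± 0.85, adjusted p = 0.0125). Its adjusted p was 0.0802 without basophil library 2 and 0.08 without eosinophil library 2. Of 11 neutrophil markers, Retnlg and Mmp9 were higher in eosinophils by the test (18.18%, beside 3.46% of all genes tested). The others included S100a8, at 3975 and 5489 FPKM in eosinophils against 1777 and 4038 in basophils, and Ngp, at 14 and 21 against 1 and 1. Lcn2 and Ltf were highest in basophil library 2, at 90 and 1554 FPKM and at 7 and 250 FPKM in basophils, against 107 and 134 and 37 and 6 in eosinophils. Camp was low in both cell types, at 2 and 6 FPKM in basophils and 2 and 0 in eosinophils. Retnla, a related gene of type 2 inflammation, was high in all 4 libraries, at 3714 and 2807 FPKM in basophils and 2635 and 2367 in eosinophils (adjusted p = 0.953).

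GATA factors bind DNA at short GATA motifs, and Gata1 and Gata2 stood on opposite sides of this comparison. The letters AGATAA were therefore searched on either strand in RefSeq promoters of mouse build GRCm38.p6, each from 250 bases before to 50 bases after a gene's start. They were found in 4 of 11 basophil genes and 2 of 7 eosinophil genes that could be matched among the largest differences. Of all 32851 promoters of the same length, 11.18% held them. The gene counts take a match in any promoter of a gene, and Cyp11a1, Gata2 and Serpina11 had 2 promoters each. The 11.18% is of single promoters, so the 2 measures are unlike and were not tested against each other. Matches with 30 bases around them that lay wholly before the gene's start are shown for genes whose levels are given above, which leaves out the match of Emr4. The windows are read 5′ to 3′ along the gene's strand, with the motif in capitals (TTATCT where it lies on the opposite strand).
Slc18a2, chr19:59260636-59260665, plus strand: ccttggccttgaTTATCTtcaggacctttg
Nts, chr10:102490532-102490561, minus strand: gggtgggggatgAGATAAgggacaaaggga
Cd200r3, chr16:44943627-44943656, plus strand: gactggagatgaAGATAAagatagaggaat
Fcer1a, chr1:173227304-173227333, minus strand: acaaccctattaTTATCTctggagaaagcc
Ccr3, chr9:124021929-124021958, plus strand: gtatccatccatAGATAActcaacagagag
A match is a description of the letters only. Gata2 itself and Gzmb, Gzmc, Cyp11a1 and Mcpt8 had no match in this window.

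Lists of genes with a shared role were then counted. Of 511 members of 22 such lists, 18 were higher in basophils and 40 were higher in eosinophils, beside 6.26% of all genes called in either direction and a median difference of 0 over all genes tested. Of these 58 members, 23 passed with each of the 4 libraries left out in turn. The bar plot of list members shows how the calls fell.

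**Figure D4:**
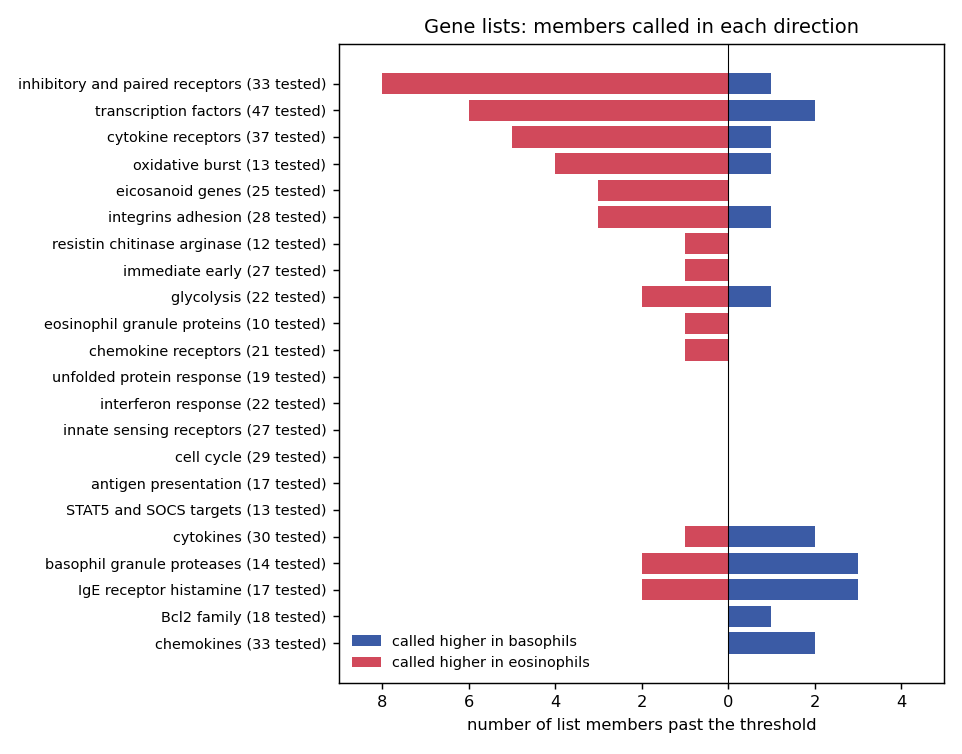
Number of members of each gene list higher in papain basophils (blue, to the right) or in papain CD11c+ eosinophils (red, to the left) by limma at an adjusted p under 0.05, with the number tested in parentheses. Inhibitory and paired receptors had the most eosinophil calls, 8 of 33, and 6 lists had no call in either direction. Of all genes tested, 3.46% were higher in eosinophils and 2.8% in basophils.

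Of 17 genes of the IgE receptor and of histamine handling, 3 were higher in basophils and 2 in eosinophils, with a median difference of 0. These calls made up 29.41% of the list, beside 6.26% of all genes tested. The 3 were Fcer1a, the IgE-binding chain used in the sort, Ms4a2, the beta chain, and Slc18a2. Ms4a2 was at 5 FPKM in both basophil libraries and listed at 0 in both eosinophil libraries (adjusted p = 0.00138). The common gamma chain Fcer1g, shared with other Fc receptors, was at 446 and 911 FPKM in basophils and 758 and 941 in eosinophils (-0.41 ± 0.51, adjusted p = 0.657). Histidine decarboxylase, Hdc, which makes histamine, was higher in both basophil libraries, at 375 and 1188 FPKM against 221 and 155, but the difference did not pass (1.85 ± 0.57, adjusted p = 0.0922). It passed without basophil library 1 (2.68, adjusted p = 0.0181) and was 1.01 without basophil library 2 (0.373). The 2 eosinophil calls were the inositol phosphatase Inpp5d (41 and 39 FPKM against 19 and 11, adjusted p = 0.0311) and the phospholipase Plcg2 (12 and 18 against 7 and 5, adjusted p = 0.0478). Inpp5d was lost without basophil library 2 (0.154), eosinophil library 1 (0.0622) and eosinophil library 2 (0.138), and Plcg2 without basophil library 2 (0.184) and eosinophil library 2 (0.23).

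Granule genes differed between the cell types for a few members only. Of 14 basophil granule genes, Gzmb, Gzmc and Mcpt8 were higher in basophils, and serglycin and cathepsin E were higher in eosinophils. These calls made up 35.71% of the list, beside 6.26% of all genes tested. Serglycin, Srgn, the proteoglycan core that packs granule contents, stood at 6356 and 6650 FPKM in eosinophils against 1955 and 2532 in basophils (-1.55 ± 0.23, adjusted p = 0.00605). This call was lost with median-ratio scaling and with library weights. Cathepsin E, Ctse, was low, at 7 and 8 FPKM against 2 and 0, and its call was lost without basophil library 2 (adjusted p = 0.0981), eosinophil library 1 (0.0501) or eosinophil library 2 (0.159). Cpa3, Cma1 and Tpsb2, proteases also made by mast cells, stood at 47, 51 and 51 FPKM in basophil library 1 and at 9, 0 and 0 in library 2. Of 10 eosinophil granule genes, Prg2 was the only one higher in eosinophils, a called share of 10% beside 6.26% of all genes tested. Ear2, a ribonuclease with near-identical family members whose reads may be shared, was highest in basophil library 1, at 382 and 13 FPKM in basophils against 67 and 87 in eosinophils.

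Of 30 cytokine genes, 2 were higher in basophils and 1 in eosinophils, and the median difference was 0.49. The called share was 10%, beside 6.26% of all genes tested. Csf2, the gene of GM-CSF, had 33 and 64 FPKM in basophils and 8 and 1 in eosinophils (3.47 ± 0.60, adjusted p = 0.012, and 0.0843 without basophil library 2). Hepatocyte growth factor, Hgf, had 40 and 51 FPKM against 6 and 5 (2.83 ± 0.35, adjusted p = 0.00241), close within each cell type. Il16, a chemoattractant for CD4+ cells, had 18 and 14 FPKM in eosinophils against 5 and 4 (-1.62 ± 0.24, adjusted p = 0.00578).

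The type 2 cytokines Il4, Il13 and Il5 did not pass between the cell types, and for Il4 this turned on 1 library. Il4 was at 42 and 122 FPKM in basophils and at 179 and 200 in eosinophils, so both eosinophil libraries were the higher ones (-1.39 ± 0.40, adjusted p = 0.078). Without basophil library 2 the Il4 difference passed (-2.15, adjusted p = 0.00235), without basophil library 1 it was -0.63 (0.086), and it also passed when scaled to totals without small RNA genes (-1.46, 0.0315). Il13 was at 20 and 71 FPKM in basophils and 66 and 67 in eosinophils, an overlap (adjusted p = 0.404, with a difference of 0.09 in place of -0.80 when basophil library 1 was left out). Il5 was at 12 and 9 FPKM against 16 and 14 (adjusted p = 0.625). Il6, a broadly acting inflammatory cytokine, was at 1066 and 828 FPKM in basophils and at 441 and 440 in eosinophils (1.09 ± 0.31, adjusted p = 0.0727). Interleukin 1 beta, Il1b, and oncostatin M, Osm, were highest in basophil library 2, at 1727 and 3748 FPKM and at 277 and 1178 FPKM, against 900 and 863 and 125 and 157 in eosinophils (adjusted p = 0.41 and 0.112). The IL-1 receptor antagonist Il1rn lay the other way, at 1336 and 1378 FPKM in eosinophils against 166 and 632 in basophils (adjusted p = 0.148).

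Of 33 chemokine genes, 2 were higher in basophils and none in eosinophils, with a median difference of 0.53. The called share of 6.06% was close to the 6.26% of all genes tested. Ccl4, a chemokine that attracts leukocytes, was at 674 and 3074 FPKM in basophils against 207 and 154 in eosinophils (adjusted p = 0.0429). It failed without basophil library 2 (adjusted p = 0.179), eosinophil library 1 (0.0655) or eosinophil library 2 (0.207). Cxcl13, a B cell attractant, was at 17 and 6 FPKM against 2 and 0 (adjusted p = 0.032, 0.0705 without basophil library 1 and 0.179 without eosinophil library 2). Ccl7, a monocyte and eosinophil attractant, was similar in level in both cell types, at 440 and 176 FPKM in basophils and 390 and 392 in eosinophils (-0.49 ± 0.43, adjusted p = 0.501), and the difference was 0.17 without basophil library 2. Ccl2, a close relative, was at 716 and 465 FPKM against 654 and 766 (adjusted p = 0.881). The eotaxin gene Ccl11 was at 107 and 3 FPKM in basophils and 77 and 79 in eosinophils, and Ccl24 at 65 and 25 against 11 and 20 (adjusted p = 0.335 and 0.392). Without basophil library 1, Ccl11 was higher in eosinophils (-4.30, adjusted p = 0.000255), and without basophil library 2 its difference was 0.45 (0.486). The basophil replicates lay on either side of both eosinophil libraries for Ccl7 and Ccl11, with library 1 the higher one, the library that also held more alveolar macrophage and fibroblast transcripts. Fibroblast markers summed to 4069 and 1575 FPKM in basophils against 2500 and 2386 in eosinophils. The part of such cells in the Ccl7 and Ccl11 values was not tested.

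Receptors for GM-CSF, IL-33, IL-17 and TSLP lay on the eosinophil side and the IL-18 receptor on the basophil side. Of 37 cytokine receptor genes, 5 were higher in eosinophils and 1 in basophils, and the median difference was -0.59. That is a called share of 16.22%, beside 6.26% of all genes tested. Il18r1, the IL-18 receptor, was the basophil gene, at 28 and 28 FPKM against 4 and 2 (2.90 ± 0.34, adjusted p = 0.00172). Csf2ra, the GM-CSF receptor alpha chain, was at 362 and 379 FPKM in eosinophils against 71 and 65 in basophils (-2.43 ± 0.41, adjusted p = 0.0109), and was lost without basophil library 2 (0.0625) or eosinophil library 2 (0.0753). Its signalling partner Csf2rb, which shares sequence with Csf2rb2, was at 268 and 278 FPKM against 158 and 182 (adjusted p = 0.234). Il1rl1, the IL-33 receptor, was at 84 and 70 FPKM in eosinophils and 27 and 33 in basophils (-1.33 ± 0.28, adjusted p = 0.0258), but did not pass with any 1 of the 4 libraries left out (0.0561 to 0.0906). The IL-17 receptor Il17ra (53 and 67 FPKM against 25 and 16, adjusted p = 0.0222) was lost without basophil library 2 (0.124) or eosinophil library 2 (0.147), and the TSLP receptor chain Crlf2 (84 and 87 against 30 and 49, adjusted p = 0.0283) without eosinophil library 2 (0.143). Il4ra, the IL-4 receptor, was at 33 and 64 FPKM in basophils and 47 and 43 in eosinophils, a difference of 0.03 ± 0.29. Of 21 chemokine receptor genes, Ccr3 alone passed, a share of 4.76% beside 6.26% of all genes tested.

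Transcription factors of the granulocyte lineages were divided between the cell types. Of 47, 2 were higher in basophils and 6 in eosinophils (17.02% called, beside 6.26% of all genes tested), with a median difference of -0.01. Beside Gata2, the basophil gene was Tal1, a partner of GATA factors, at 4 and 6 FPKM against 0 and 1 (adjusted p = 0.0346, 0.164 without basophil library 2 and 0.0819 without eosinophil library 1). Lyl1, a relative of Tal1, lay on the eosinophil side, at 32 and 40 FPKM against 3 and 3 (-3.20 ± 0.27, adjusted p = 0.000509). The aryl hydrocarbon receptor Ahr was at 33 and 35 FPKM in eosinophils against 8 and 12 (adjusted p = 0.0125, and 0.08 without eosinophil library 2). Together with Cebpe and Gata1, the remaining eosinophil calls were Runx2 and Irf5. Irf5 did not pass with any 1 of the 4 libraries left out (adjusted p of 0.0623 to 0.171), and Runx2 passed only without basophil library 1 (0.0393, against 0.0885 to 0.172).

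A few enzymes of lipid mediators were higher in eosinophils. Of 25 eicosanoid genes, 3 were higher in eosinophils and none in basophils, with a median difference of -0.50. Their share of 12% stood beside 6.26% of all genes tested. Alox5, the 5-lipoxygenase that starts leukotriene synthesis, was at 61 and 80 FPKM in eosinophils against 11 and 13 in basophils (-2.45 ± 0.23, adjusted p = 0.000681). Alox15, the enzyme of 12- and 15-hydroxylated lipids, was at 99 and 107 FPKM against 10 and 21 (-2.74 ± 0.37, adjusted p = 0.00336). Pla2g7, which degrades platelet-activating factor, was at 511 and 486 FPKM against 46 and 46 (-3.41 ± 0.66, adjusted p = 0.0196), and did not pass without basophil library 2 (0.0933) or eosinophil library 2 (0.111).

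Of 33 inhibitory and paired receptors, 8 were higher in eosinophils and 1, Cd200r3, in basophils, and the median difference was -0.64. The called share was 27.27%, beside 6.26% of all genes tested. Siglecg, an inhibitory lectin that binds sialic acid, was at 65 and 70 FPKM in eosinophils against 5 and 4 in basophils (-3.64 ± 0.30, adjusted p = 0.000509). Cd300lb, an activating CD300 receptor, was at 71 and 63 FPKM against 7 and 3 (-3.58 ± 0.31, adjusted p = 0.00062). Cd300lf, an inhibitory relative, was at 639 and 725 FPKM against 47 and 95 (adjusted p = 0.0108, and 0.0789 without eosinophil library 2), and Cd300ld at 58 and 60 against 12 and 6 (adjusted p = 0.00958, 0.0583 without basophil library 2 and 0.068 without eosinophil library 2). These CD300 genes are similar in sequence, so the division of reads between them is uncertain. The eosinophil integrin chain Itgam, which encodes CD11b, was at 239 and 242 FPKM against 29 and 32 (-2.94 ± 0.29, adjusted p = 0.000681). In all, 3 of 28 integrin and adhesion genes were higher in eosinophils and 1 in basophils (14.29% called, beside 6.26% of all genes tested). The others were Itgb2, the partner of Itgam (273 and 267 FPKM against 123 and 66, adjusted p = 0.0118, and 0.0724 without eosinophil library 2), and Cd44 (293 and 335 against 171 and 148, adjusted p = 0.0171). Cd44 was lost without basophil library 2 (0.0817) or eosinophil library 2 (0.11). Icam2 was at 19 and 34 FPKM in basophils against 11 and 8 (difference 1.35, adjusted p = 0.0203). Its call was lost without basophil library 2 (difference 0.94) or eosinophil library 2 (1.14). Icam2 is also a gene of endothelium, whose 9 markers were higher in both basophil libraries. Naive basophils held 14 and 15 FPKM of Icam2, with endothelial marker sums of 52 and 29. The part of endothelial cells in the Icam2 values was not tested.

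Of 13 genes of the oxidative burst, 4 were higher in eosinophils and 1 in basophils, with a median difference of -0.45. These calls made up 38.46% of the list, beside 6.26% of all genes tested. Ncf4, a cytosolic subunit of the NADPH oxidase, was at 236 and 243 FPKM in eosinophils against 37 and 78 in basophils (-2.13 ± 0.28, adjusted p = 0.00306). Cyba, the membrane subunit, was at 614 and 693 FPKM against 391 and 340 (adjusted p = 0.0386, 0.159 without basophil library 2 and 0.193 without eosinophil library 2), and the small GTPase Rac2 at 168 and 144 against 54 and 102 (adjusted p = 0.0488). Rac2 was lost without basophil library 1 (0.0531), eosinophil library 1 (0.1) and eosinophil library 2 (0.154). The basophil call was the nitric oxide synthase Nos2, at 1 and 5 FPKM in basophils and listed at 0 in both eosinophil libraries, a level below that of the naming rule. Its call was lost without eosinophil library 1 (adjusted p = 0.0605) or 2 (0.154), and Nos2 fell under the filter without either basophil library.

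Metabolic and survival genes differed for single members. The called share was 13.64% for glycolysis, 5.56% for the BCL2 family and 3.7% for immediate early genes, beside 6.26% of all genes tested. Of 22 glycolysis genes, 2 were higher in eosinophils and 1 in basophils (median -0.10). The glucose transporter Slc2a3 was at 38 and 26 FPKM in eosinophils against 7 and 5 in basophils (-2.23 ± 0.32, adjusted p = 0.00428). The enolase Eno1 was at 169 and 177 FPKM against 101 and 98 (adjusted p = 0.0209, 0.0715 without basophil library 2 and 0.107 without eosinophil library 2). The phosphofructokinase Pfkm, at 3 and 6 FPKM in basophils against 1 and 1, was the basophil call, and was lost without basophil library 2 (adjusted p = 0.092) or eosinophil library 2 (0.117). Of 18 BCL2 family genes, the death-promoting Bik was higher in basophils, at 3 and 14 FPKM against 1 and 0 (adjusted p = 0.0474, 0.172 without basophil library 2 and 0.254 without eosinophil library 2). Of 27 immediate early genes, the phosphatase Dusp6 was higher in eosinophils, at 70 and 87 FPKM against 15 and 36 (adjusted p = 0.035, 0.0555 without basophil library 1 and 0.193 without eosinophil library 2).

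No member passed in the lists of innate sensing receptors (27 tested), antigen presentation (17), STAT5 and SOCS targets (13), interferon response (22), unfolded protein response (19) and cell cycle (29). Their medians were 0.29, -0.33, 0.44, 0.79, 0.36 and -0.25. The genes of MHC class II were expressed in all 4 libraries: H2-Aa stood at 635 and 307 FPKM in basophils and at 494 and 622 in eosinophils. The costimulatory ligand Cd80 stood at 119 and 131 FPKM in eosinophils against 15 and 8 in basophils, but did not pass (-3.39 ± 0.92, adjusted p = 0.0664), and was singled out after its values were seen.

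The same cell types were compared in naive mice, whose libraries share no sample with the papain pair. Both pairs were tested in the same fit with the same estimate of each gene's spread, so the 2 sets of calls are not independent. There 1990 genes differed, 14% of those tested. Of the 893 papain calls, 426 (47.7%) were also naive calls in the same direction, which is 21.41% of the naive calls, and 8 were called in opposite directions. Gzmc, Gzmb, Cyp11a1, Gata2, Mcpt8 and Slc18a2 were higher in basophils, and Inpp5j, Ccr3, Cebpe, Gata1 and Prg2 in eosinophils, in both pairs. Naive basophils had 1780 and 1670 FPKM of Gzmc against 0 in both naive eosinophil libraries, and 664 and 845 FPKM of Gata2 against 2 and 1. Papain basophil libraries were below both naive ones for each of these 2 genes. Summed basophil markers were 6739 and 5872 FPKM in naive basophils beside 702 and 2108 in papain basophils, and epithelial markers 6848 and 8854 beside 21638 and 44548. The part of these sums in the smaller differences after papain was not tested.

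An interaction term tested whether the difference between basophils and eosinophils itself differed between papain and naive mice, and it passed for 359 genes (2.52%). Since naive eosinophils were not split by CD11c, this contrast joins the treatment with the gate. Il6 had the lowest adjusted p among the named genes: it stood at 2713 and 3535 FPKM in basophils and at 91 and 75 in eosinophils of naive mice, a difference of 5.21 in place of 1.09 in papain mice (interaction -4.12, adjusted p = 0.00539). Il6 thus stood lower in papain than in naive basophils and higher in papain CD11c+ than in naive eosinophils. Ccl7 stood at 45 and 23 FPKM in basophils and at 1 and 2 in eosinophils of naive mice, and at similar levels in both cell types after papain (interaction -4.25, adjusted p = 0.00849). Il4 stood at 353 and 319 FPKM in basophils and at 126 and 110 in eosinophils of naive mice, so the order of the cell types was the opposite of that after papain (interaction -2.89, adjusted p = 0.0335). Over the 8 libraries left out in turn, the adjusted p of the Il4 interaction ran from 0.00152 to 0.12. It did not pass in 5 of them: without eosinophil library 2 of the papain pair (0.12), without naive basophil library 1 (0.0756) or 2 (0.104), and without naive eosinophil library 1 (0.109) or 2 (0.117). Il13 had 169 and 226 FPKM against 37 and 25 in naive cells, and its interaction did not pass (-3.44, adjusted p = 0.0618).

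Alox5 and Il1rl1 also differed in this way. Alox5 was alike in naive basophils (45 and 54 FPKM) and naive eosinophils (47 and 46), and stood at 11 and 13 in papain basophils beside 61 and 80 in CD11c+ eosinophils (interaction -2.53, adjusted p = 0.00849). Il1rl1 stood at 98 and 79 FPKM in naive basophils and 38 and 72 in naive eosinophils, against 27 and 33 and 84 and 70 after papain (interaction -2.07, adjusted p = 0.0284, from 0.0224 to 0.0837 over libraries left out, with 3 of 8 passing). Fcer1a and Ms4a2, the IgE receptor chains, differed less between the cell types after papain, with 141 and 194 FPKM of Fcer1a and 47 and 50 of Ms4a2 in naive basophils beside 23 and 18 and 5 and 5 in papain basophils. Fcer1a is a sort gene, and the basophil marker sums above moved with both. Cyba and Eno1 differed less as well, with naive eosinophils at 1184 and 923 FPKM of Cyba and naive basophils at 181 and 173.

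**Figure D5:**
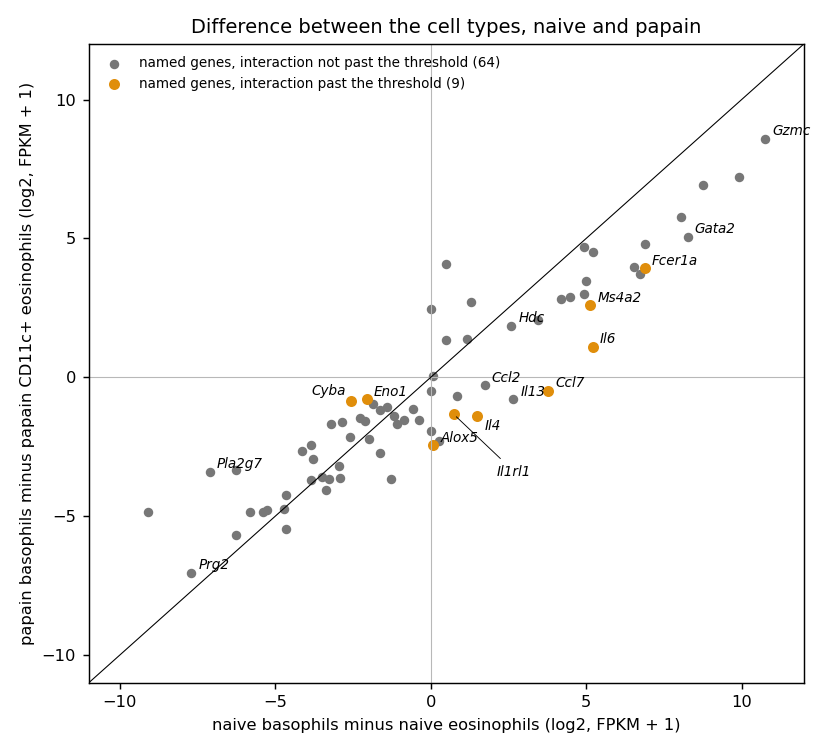
Basophil minus eosinophil difference (log2 of FPKM + 1) of the 73 named genes in naive mice (horizontal) and in papain mice with CD11c+ eosinophils (vertical); the line marks equal differences. The 9 genes whose interaction passed are orange, and Il4, Il6 and Ccl7 lie below the line, with Il4 and Ccl7 above 0 in naive mice and below 0 after papain.

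Papain eosinophils without CD11c were set beside the CD11c+ gate with the same basophil libraries, so both sets of differences share those 2 libraries and only their own values are given. Against CD11c- eosinophils, 1624 genes (11.4%) differed from papain basophils. The difference of Prg2 was -6.03 against the CD11c- gate, where it stood at 273 and 343 FPKM, and -7.04 against the CD11c+ gate. That of Gata1 was -3.88 and -3.66, that of Gzmb 6.92 and 7.21, and that of Slc18a2 3.85 and 4.67. In the same order, it was -6.50 and -5.67 for Inpp5j, -4.64 and -3.70 for F5, and -2.75 and -3.67 for Spns3. Il6 was at 222 and 156 FPKM in CD11c- eosinophils, with a difference of 2.33 (adjusted p = 0.0024) beside 1.09 for the CD11c+ gate. Il4 was at 95 and 114 FPKM and Ccl7 at 126 and 129 in CD11c- eosinophils, with differences of -0.53 and 1.12 (adjusted p = 0.413 and 0.126) beside -1.39 and -0.49. Ccl24 was at 1 and 2 FPKM in CD11c- eosinophils beside 11 and 20 in CD11c+ eosinophils, with a difference of 4.08 (adjusted p = 0.0287) beside 1.38.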

How the data were processed

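Per the labels' protocols, libraries were made with NEBNext kits from 10 ng of poly(A) RNA of sorted lung cells. The submitters' processing notes name TopHat 1.4.0, Cufflinks 1.3.0 and the mm9 build; annotation, filters and rounding are not given in the sources used here. The deposited table holds 1 score per gene and library, read as FPKM that the authors rounded to whole numbers, since Cufflinks reports FPKM. Depth is unknown, so precision comes from replicate spread alone. Commas were removed from 1008 cells and 3 cells next to 0 were set to 0; symbols were kept as deposited, and 25 rows with symbols turned into dates were not named. Of 21110 gene rows, 19085 had symbols in the reference list.

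The 14257 genes that reached 1 FPKM in 2 or more libraries were fitted as log2(FPKM + 1) with limma 3.58.1 in R 4.3.3, with 1 coefficient per group over all 15 libraries and 8 groups, a trended eBayes step, and two-sided p-values adjusted over all genes tested by Benjamini and Hochberg (threshold 0.05). The labels do not pair replicates. The fit was run on simulated data in which each gene had the same spread in every group. That run cannot show how the test behaves with the noisier papain basophil libraries. Alternatives changed the pseudocount, filter, scaling, trend, replicate block, the libraries fitted and, chosen after seeing the data, library weights.

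Named genes were the 12 with the largest difference in each direction among called genes at 10 FPKM or more without overlap, up to 4 called members in each direction per list at 5 FPKM or more, and 17 fixed genes (Hdc, Fcer1a, Prg2, Ccl7, Il4, Il13, Il5, Il6, Ccl2, Ccl11, Ccl24, Il4ra, Il1rl1, Csf2rb, Gata1, Gata2, Cebpe). Gene models without a name and small RNA genes were passed over. Marker and sort genes that none of these rules selected are mainly given as values. The sort genes Fcer1a and Siglec5 were selected, and their differences follow from the gate. A gene that the rule selects is not reported here. Other list members are named as examples chosen after their values were seen. The comparison, members and lists were chosen with earlier results of these data known. Gene coordinates of mm9 were not used here, and promoter coordinates are those of GRCm38.p6.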

Additional observations from a re-analysis of the deposited data

Results flagged for a closer look

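The difference between basophils and eosinophils differed between papain and naive mice, by limma's interaction term, for 359 genes, among them 9 of the named genes. The interaction is the papain difference minus the naive difference on the log2(FPKM + 1) scale, with CD11c+ eosinophils in the papain pair and unsplit eosinophils in the naive pair. It was -4.12 for Il6 (adjusted p = 0.00539) and -4.25 for Ccl7 (adjusted p = 0.00849), and both passed with each of the 8 libraries left out in turn (0.00314 to 0.0346 and 0.002 to 0.0482). It was -2.53 for Alox5 (adjusted p = 0.00849, 0.00549 to 0.0508 over libraries left out), -2.89 for Il4 (0.0335, 0.00152 to 0.12) and -2.07 for Il1rl1 (0.0284, 0.0224 to 0.0837). For the IgE receptor chains it was -2.96 in Fcer1a (0.0318, 0.0195 to 0.118) and -2.54 in Ms4a2 (0.0162, 0.0114 to 0.0672). It was 1.72 for Cyba (0.0149) and 1.27 for Eno1 (0.0236), where eosinophils were higher in both pairs and by more in the naive pair. Both of these calls were lost with some of the libraries left out. With the 4 groups of this contrast fitted alone, Il6 passed (0.0299) and the adjusted p of the other 8 genes lay between 0.0571 and 0.164. Groups of 2 libraries are too small for a check of single outlying samples.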

How the results depend on the processing

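All counts in this part are of genes called by limma. The count of 893 for papain basophils against CD11c+ eosinophils was 0 with the 4 compared libraries alone, 246 with library weights, 595 with a filter of 5 FPKM, and 350 to 2242 with 1 library left out; pseudocounts of 0.5 and 5, no filter, other scalings and no trend gave 679 to 1133. Median-ratio scaling moved the median of all genes by 0.16 on the log2 scale. With it, 7 named genes lost their call: Srgn, Cd44, Eno1, Cyba, Crlf2, Plcg2 and Rac2. The 58 called list members were 0 with the compared libraries alone, 16 with library weights and 27 to 126 with 1 library left out. The interaction count of 359 was 160 with a filter of 5 FPKM, 173 scaled to totals without small RNA genes, 15 with its 4 groups alone, 177 with library weights and 36 (without naive basophil library 2) to 1013 with 1 library left out. Its share of positive calls, 59.9%, was 44% with median-ratio scaling, 37.2% with quantile normalization and 43.4% without small RNA genes. The naive count of 1990 ran from 929 to 1819 with 1 library left out, and its share higher in basophils, 37.9%, was 54.5% and 51.3% with the first 2 of these scalings. The CD11c- count of 1624 was 487 alone, 639 with library weights and 469 to 2525 with 1 library left out, and its 57.3% was 36.3% with quantile normalization and 32.1% without small RNA genes. The cause of these shifts was not tested.

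Of 62 named genes that passed, 33 passed with each of the 4 libraries left out and 25 under every alternative but the compared libraries alone, where the smallest adjusted p was 0.179. Some differences that had not passed changed sign: Il4ra, 0.03, was -0.038 scaled without small RNA genes, and it ran from -0.43 to 0.50 with 1 library left out (-0.03 without eosinophil library 2). With 1 library left out, Il13 ran from -1.68 to 0.093, Ccl11 from -4.30 to 0.45, Ccl2 from -0.61 to 0.017 and Ccl7 from -1.15 to 0.17, each with its ends at the 2 basophil libraries. Ccl11 and Hdc passed without basophil library 1, and Il4 without basophil library 2 and when scaled without small RNA genes.

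The labels give the groups the same replicate numbers without saying that they pair samples, and same-numbered papain basophil and CD11c+ eosinophil libraries deviated together with a correlation of 0.07 across genes. With a replicate block the counts were 672 for the papain pair, 47 for the list members, 1752 for the naive pair, 299 for the interaction and 1226 for the CD11c- gate. Unknown depth limits what the low values can show.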
